A study of Homo sapiens with 3 samples.

Results

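The genes described here are 10 immediate early genes, FOS, FOSB, FOSL1, JUN, JUNB, JUND, EGR1, IER2, IER3 and DUSP1, chosen by name, and all 10 were found among the 13247 protein-coding genes of the count table. They were measured in RNA that came down with a Flag-tagged copy of DDX49, a DEAD-box RNA helicase, in HHL5 cells, a human liver line given as wild type and as embryonic liver cells. The single group held 3 replicate libraries. All 3 came from cells that carried Flag-DDX49 and had been kept for 24 h in OA/PA, mixed 2 to 1 at 1.5 mM, fatty acids usually meant by these letters being oleic and palmitic acid. RNA was recovered by immunoprecipitation after ultraviolet cross-linking and sequenced (RIP-seq). No input, mock pull-down or untreated library was analysed here, so a level joins a transcript's abundance in the cells with its recovery in the pull-down, and fewer cells carrying a transcript cannot be told apart from less of it per cell.

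Immediate early genes are transcribed within minutes of a growth factor or stress signal, without new protein synthesis, mainly through serum response factor, its ETS partners and CREB at their promoters. Several encode subunits of AP-1, a dimeric transcription factor of JUN proteins with each other or with FOS proteins. Their mRNAs are mostly short-lived, and the response is closed by feedback genes such as DUSP1, a phosphatase that inactivates MAP kinases. In liver, JUN and FOS are known for their part in regeneration and in the response to stress.

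The members shared compact genes and, in part, promoter elements, neither of which was used to choose them. Gene spans, from the first to the last annotated base with introns, ran from 1.349 to 8.497 kb with a median of 3.33 kb, against a median of 29.9 kb over the 12819 genes of the table with a RefSeq position, of which 17.9% had a span no longer than the longest member's. Of the 10 genes 4 lie on chromosome 19 (JUNB, IER2, JUND and FOSB), 2 on chromosome 5 (EGR1 and DUSP1), and 1 each on chromosomes 1 (JUN), 6 (IER3), 11 (FOSL1) and 14 (FOS). JUNB ends 357 kb before IER2, and JUND ends 638 kb before DDX49 itself. RefSeq (GRCh38.p14) promoters, 250 bases before to 50 bases after the gene's start, were held for 8 members (all but FOSL1 and IER3).

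4 of these promoters are shown because they carry elements, though not each of them all, through which this response is known to be switched on. They belong to 2 members of low level (FOS and EGR1) and 2 of high level (JUND and DUSP1). The sequences are written 5′ to 3′ on the gene's own strand. Capitals mark TGACGT, the core of the cAMP response element that CREB binds, on either strand and extended to TGACGTCA where the full element is present, as well as the serum response (CArG) box and the TATA box TATAAA.
FOS, chr14:75278578-75278877, plus strand: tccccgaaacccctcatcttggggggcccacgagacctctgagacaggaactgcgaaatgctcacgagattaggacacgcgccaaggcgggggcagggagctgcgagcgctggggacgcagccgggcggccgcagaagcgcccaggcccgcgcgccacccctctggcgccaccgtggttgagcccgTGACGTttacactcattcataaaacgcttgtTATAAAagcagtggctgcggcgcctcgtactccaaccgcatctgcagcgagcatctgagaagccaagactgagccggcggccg
EGR1, chr5:138465229-138465528, plus strand: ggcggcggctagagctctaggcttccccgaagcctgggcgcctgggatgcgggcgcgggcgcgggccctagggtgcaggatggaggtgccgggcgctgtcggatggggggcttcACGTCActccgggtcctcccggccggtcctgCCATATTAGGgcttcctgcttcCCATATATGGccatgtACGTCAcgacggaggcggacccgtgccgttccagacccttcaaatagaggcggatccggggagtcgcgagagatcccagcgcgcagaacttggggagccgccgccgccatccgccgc
JUND, chr19:18281573-18281872, minus strand: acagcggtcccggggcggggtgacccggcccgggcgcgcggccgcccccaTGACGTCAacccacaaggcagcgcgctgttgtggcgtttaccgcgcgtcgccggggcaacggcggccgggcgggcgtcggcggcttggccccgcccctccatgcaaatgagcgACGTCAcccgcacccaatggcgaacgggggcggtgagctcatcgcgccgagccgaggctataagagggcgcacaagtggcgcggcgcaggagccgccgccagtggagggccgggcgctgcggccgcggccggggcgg
DUSP1, chr5:172771146-172771445, minus strand: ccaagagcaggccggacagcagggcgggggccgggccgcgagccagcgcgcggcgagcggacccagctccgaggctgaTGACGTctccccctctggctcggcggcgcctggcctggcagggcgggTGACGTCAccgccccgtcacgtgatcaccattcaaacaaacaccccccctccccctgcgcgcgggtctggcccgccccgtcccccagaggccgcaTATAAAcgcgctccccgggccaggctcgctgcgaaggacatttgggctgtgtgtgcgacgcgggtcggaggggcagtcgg

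TGACGT was present on either strand in 5 of the 8 promoters (FOS, FOSB, JUND, EGR1 and DUSP1), against 11.5% of 10415 promoters of the same length from genes of the table. The full TGACGTCA, which contains TGACGT on both strands, was found in JUND and DUSP1 and in 3.25% of all. TATAAA was found in 4 (FOS, FOSB, JUNB and DUSP1) against 6.14%, and the serum response box in EGR1, which held 2 of them, against 1.05%. TGACATCA, a variant of the AP-1 site, was found in JUN and in 1.51% of all, the AP-1 site TGACTCA in 0 of the 8 against 3.19%, and the EGR1 site GCGTGGGCG in 0 against 1.31%. The GC box GGGCGG, present in 69.3% of all promoters, was found in 6. These matches describe sequence only. Elements outside the searched windows were not looked for, so a gene without a match here may have one further away. The libraries measured RNA in a pull-down, and nothing about binding at these promoters was measured.

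The libraries held 2023133, 1461858 and 1096586 counts in replicates 1, 2 and 3, and 1 count equalled 0.494, 0.684 and 0.912 CPM, a scale on which every library sums to 1000000. DDX49, the captured protein's own gene, took 3.53%, 4.15% and 5.09% of the counts, which cannot separate the cells' mRNA from that of the construct. Of 15 markers of hepatocytes 6 were in the table, and 4 of these averaged under 1 CPM, 2 of them at 0 counts. The summed level of 1676 to 1765 CPM was nearly all CPS1 (1726 ± 45.9 CPM, SD, n = 3), the first enzyme of the urea cycle. Of 11 biliary and progenitor markers 8 were in the table with summed levels of 13931 to 15590 CPM from KRT8, KRT7 and KRT18, and KRT19 was at 0 counts. Of 10 stellate cell and fibroblast markers 8 were in the table (1138 to 1241 CPM, mostly VIM), of 7 endothelial markers 3 (148 to 163 CPM, mostly ENG), and of 8 immune cell markers 1, CD14, at 0 counts. Labels do not say whether the replicates were separate cultures, and their spread may be only technical.

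The members lay mostly in the upper part of the table, and the highest of them, IER3, had 223 times the reads of the lowest, FOSB. 8 of 10 were above the median of all genes (16.8 CPM), 5 were among the highest 10%, and their median percentile was 86.7. The percentile was 98.7 for IER3, 96.6 for JUND, 95.2 for DUSP1, 95.1 for IER2, 93.2 for JUNB, 80.1 for JUN, 68.9 for FOSL1, 57.9 for FOS, 46.2 for EGR1 and 27.6 for FOSB. The members summed to 2103, 2089 and 2086 CPM in replicates 1, 2 and 3, so the highest and the lowest total were 0.842% of their mean apart.

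**Figure D1:**
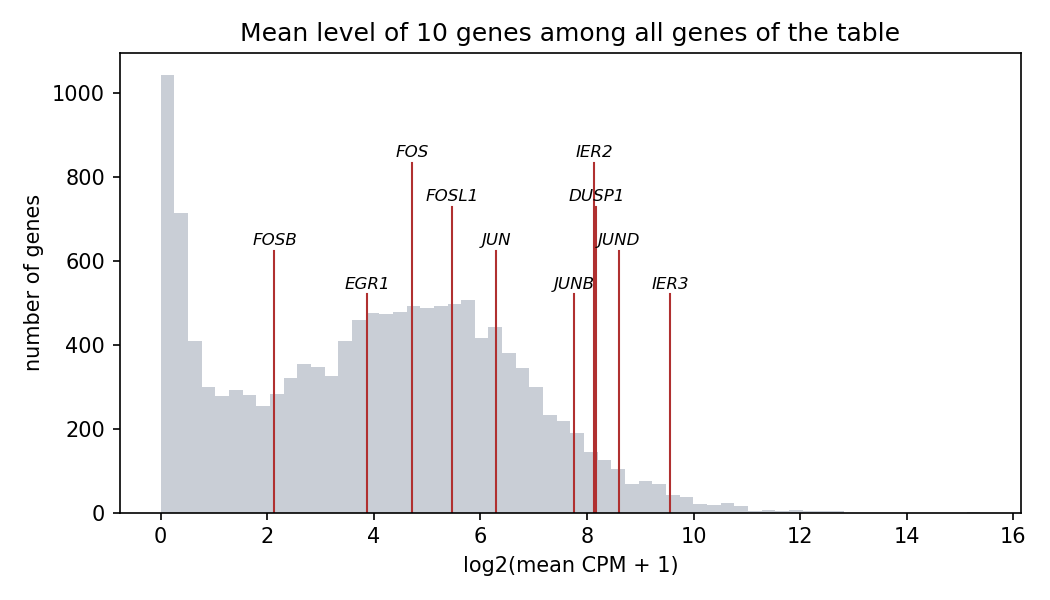
Histogram of log2(mean CPM + 1) over the 13247 genes of the table (y axis, number of genes), with red lines at the 10 genes. IER3, JUND, DUSP1, IER2 and JUNB stand in the upper tail at percentiles 93.2 to 98.7, and EGR1 (46.2) and FOSB (27.6) lie below the median gene.

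Among the JUN family, the subunits that can form AP-1 alone, JUND gave the most reads. JUND, which is known to be expressed broadly and to vary little with stimulation, had 403, 408 and 353 CPM in replicates 1, 2 and 3. JUNB, often an antagonist of JUN, had 222, 199.7 and 225 CPM. JUN, the founding member and the substrate of JNK kinases, had 64.3, 81.4 and 86.6 CPM. The ranges of the 3 genes over the libraries did not overlap.

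The 3 JUN genes have no introns, so their span is the length of the transcript and their levels can be set against each other per length. Per kb of transcript, JUND had 209, 212 and 183 CPM, JUNB 122, 109 and 123, and JUN 19.7, 24.99 and 26.6. JUND was 1.71 ± 0.227 times JUNB and 8.64 ± 1.86 times JUN (mean of the ratio within each library ± SD, n = 3), with lowest ratios of 1.49 and 6.88. JUNB was 5.05 ± 0.969 times JUN. JUN made up 9.32%, 11.8% and 13.03% of the family's reads, JUNB 32.3%, 28.97% and 33.9%, and JUND 58.4%, 59.2% and 53.1%.

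FOS, FOSB and FOSL1, of the FOS family, whose proteins need a JUN partner to bind DNA, together gave 72.1 ± 8.16 CPM, against 681 ± 14.3 for the 3 JUN genes. FOSL1, also called FRA1, known for its expression in migrating and transformed epithelial cells, had 51.9, 35.6 and 42.9 CPM. FOS had 21.7, 26.7 and 27.4 CPM, from 44, 39 and 30 counts. FOSB had 10, 1 and 5 counts, or 4.94, 0.684 and 4.56 CPM, and its 95% Wilson intervals (2.68 to 9.10, 0.121 to 3.88 and 1.95 to 10.7 CPM) overlapped. Overlap of such intervals does not show that levels are equal, and FOSB had too few counts for the test between libraries described below. Such intervals cover counting error only, here and below.

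The JUN family took 89.8% (95% Wilson interval 88.2 to 91.2), 91.6% (89.9 to 93.1) and 89.9% (87.6 to 91.8) of the reads of these 6 AP-1 genes. That share depends on which genes are counted. FOSL2, the fourth FOS family gene, which is not among the 10, had 530, 562 and 416 CPM, more reads than each FOS or JUN gene of the 10 in every library, and with it on the FOS side the JUN share was 53.1%, 52.5% and 57.5%. These shares count reads, not molecules, since the lengths of the FOS family transcripts were not used here.

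IER3 and IER2, named for their immediate early response, were among the highest members. IER3, a small membrane protein linked to survival signalling, had 766, 773 and 731 CPM and was the highest of the 10 in every library. Its transcript can be no longer than its span of 1349 bases, so its level per kb was at least 568, 573 and 542 CPM, or at least 2.71 times that of JUND in every library. A lncRNA gene, IER3-AS1, overlaps its span, and no source used here says how strand was treated in counting.

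IER2, a nuclear protein, had 519, 390 and 350 counts, or 257 (95% Wilson interval 235 to 280), 267 (242 to 295) and 319 (287 to 354) CPM. Replicate 3 was the highest of the 3, and its interval overlapped that of replicate 2 but not that of replicate 1. It was the only member that passed the test between libraries described below.

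The remaining members were DUSP1 and EGR1. DUSP1, the feedback phosphatase, had 294, 285 and 285 CPM and the smallest coefficient of variation of the 10, 1.85%. EGR1, a zinc finger transcription factor that is among the fastest to respond to serum, had 37, 17 and 12 counts, or 18.3, 11.6 and 10.9 CPM, with a coefficient of variation of 29.8%. The EGR1 intervals in replicates 1 (13.3 to 25.2 CPM) and 3 (6.26 to 19.1 CPM) overlapped.

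**Figure D2:**
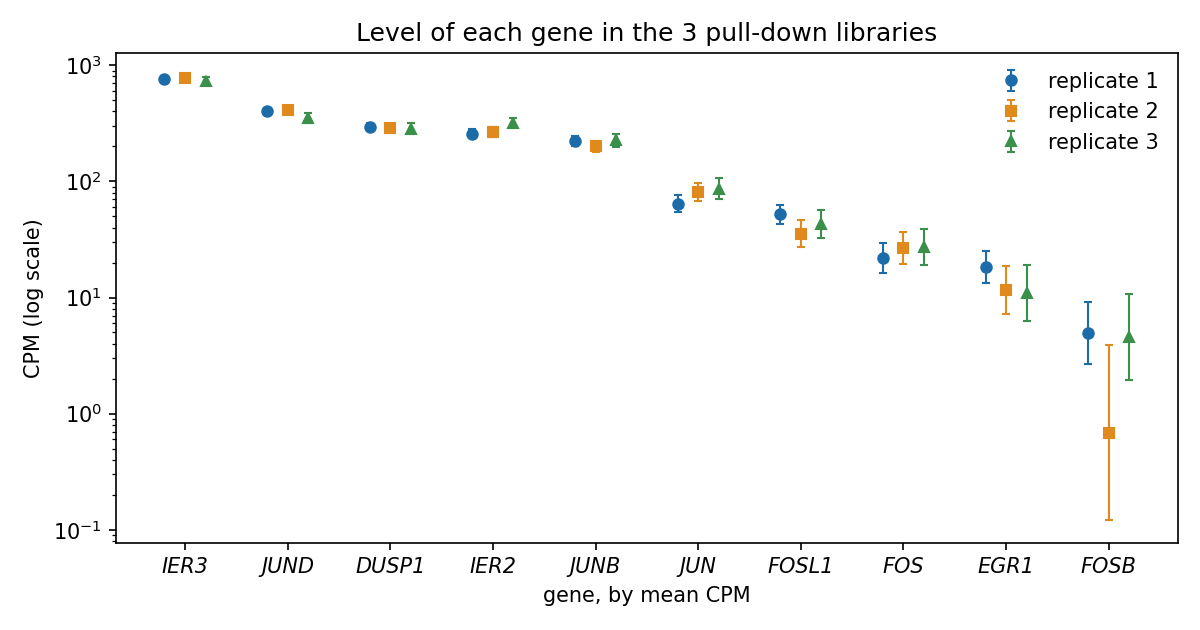
CPM on a log axis for each of the 10 genes (x axis, by mean level) in replicates 1 (circles), 2 (squares) and 3 (triangles), with 95% Wilson intervals of counting error as bars. IER3 lies highest at 731 to 773 CPM, IER2 is highest in replicate 3, and FOSB rests on 10, 1 and 5 counts.

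In reads, the order from IER3 through JUND, DUSP1, IER2, JUNB, JUN, FOSL1, FOS and EGR1 to FOSB held without overlap of the library ranges for 8 of the 9 neighbouring pairs. The exception was DUSP1 and IER2, of which DUSP1 was the higher in replicates 1 and 2 and IER2 in replicate 3. A sign-flip test over 3 libraries cannot go below 0.25, so no p is given for these pairs, and outside the JUN family and the bound for IER3 the order is one of reads, not of transcripts. The span of JUNB overlaps 865 bases of HOOK2, which had 36.8 ± 4.36 CPM against 216 ± 14.0 for JUNB. Closest to IER3 in log2(CPM + 1) over the 3 libraries were the phosphatase PPM1G (771, 792 and 726 CPM) and HNRNPUL1 (801, 765 and 739 CPM), at root mean square differences of 0.022 and 0.039. With 3 libraries this likeness is mostly one of level.

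IER2 alone of the 9 members tested differed between the libraries by more than counting error, a call lost without replicate 1 or without replicate 3. A chi-square test compared the 3 counts of a gene with the library totals, over the 8633 genes whose counts added up to 30 or more, with Benjamini-Hochberg adjustment at 0.05, and it called 19.6% of them. Of the 9 members tested 1 was called, IER2 (adjusted p = 0.0315), and FOSB, with 16 counts in all, was not tested. This compares libraries of 1 group, not conditions.

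The other 8 had adjusted p-values from 0.151 (JUN) and 0.152 (JUND) to 0.906 (DUSP1), with FOSL1 at 0.192, EGR1 at 0.297, JUNB at 0.44, IER3 at 0.605 and FOS at 0.676. A share of 1 in 9 is not above the background. The test finds smaller differences at higher counts, and the members were not compared with genes of equal level. When the common biological coefficient of variation of 14.1% from edgeR was added to the variance, 0.371% of all genes and 0 members were called. With it 0 members had an unadjusted p under 0.05, and IER2 had an adjusted p of 0.982. This common spread was estimated from the same 3 libraries that it was used to test, so it is no independent check of the calls, here and below. For IER2 it was also above the gene's own coefficient of 10.3%. Per gene, the biological coefficient of variation ran from 8.0% (IER3) to 24.9% (EGR1) over the 9 members. Its median was 10.3%, against a median of 16.6% over all genes fitted. Members of higher level mostly had lower coefficients, and most members lay above the median gene, so these medians were not compared at equal level.

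Replicates carry no order, but the pair of replicates 1 and 3, the deepest and the shallowest library, was compared on its own. The same test over 7975 genes called 6.7% as higher and 9.88% as lower in replicate 3. Of 9 members tested 1 was called, IER2, higher in replicate 3 (log2 difference 0.31, adjusted p = 0.0155), with 3 members at an unadjusted p under 0.05. 4 of the 9 were higher and 5 lower in replicate 3, and their median log2 difference was -0.05, against -0.08 over all genes tested, of which 42.2% were higher in replicate 3.

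By member, JUN had a log2 difference of 0.43 (adjusted p = 0.108), FOS of 0.32 (0.545) and JUNB of 0.02 (0.938). EGR1 had -0.69 (0.287), FOSL1 -0.27 (0.489), JUND -0.19 (0.123), IER3 -0.07 (0.50) and DUSP1 -0.05 (0.796). JUN and JUND thus differed in opposite senses within 1 family, and neither passed the test. In the pairs 1 and 2 (5.8% of all genes called) and 2 and 3 (6.77%) 0 members were called, with 1 and 2 members at an unadjusted p under 0.05, and IER2 had adjusted p-values of 0.788 and 0.115. Its call thus rests on both replicates 1 and 3, and depth and the DDX49 share differ between these libraries too. In the pair of replicates 1 and 3, IER2 had an adjusted p of 0.00371 with TMM factors and of 0.00895 with DDX49 left out of the totals. The part of depth was not tested.

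**Figure D3:**
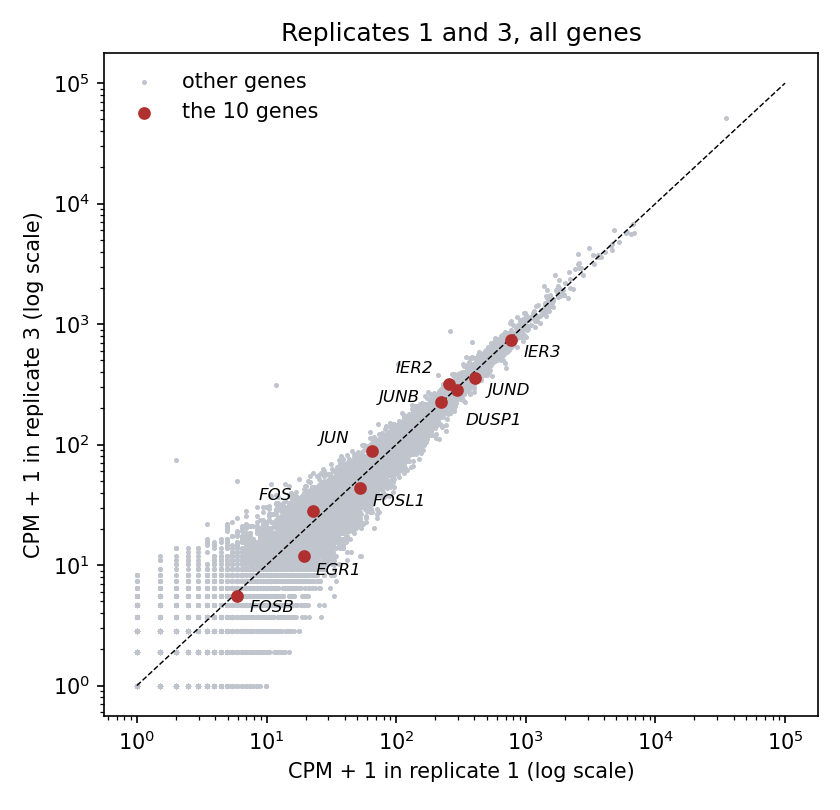
CPM + 1 in replicate 1 (x axis) against replicate 3 (y axis), both log scales, for all genes (grey) and the 10 genes (red), with the dashed line of equal level. The 10 lie close to the line, IER2 above it at 257 and 319 CPM and EGR1 below it at 18.3 and 10.9 CPM.

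Around the 10 genes, 8 further lists of the pathway held 107 genes, 96 of them in the table, and the 11 others were not analysed here. Of the 76 tested over the 3 libraries 25 (32.9%) were called, against the background of 19.6%. As for the members, these shares were not compared at equal level. With the common spread added 2 remained called, among them DUSP10. In the pair of replicates 1 and 3, 9 of 74 were called higher and 11 lower in replicate 3, against 6.7% higher and 9.88% lower over all genes.

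The upstream factors that read the signal at immediate early promoters had 6 of 11 tested members called lower in replicate 3 and 0 higher, against 9.88% lower and 6.7% higher over all genes, with a median log2 difference of -0.42 against -0.08. None of the 6 was called over the 3 libraries with the common spread added, where their adjusted p-values were 0.602 (SRF) to 0.95 (CREBBP). Serum response factor SRF had 154, 137 and 88.5 CPM (log2 difference -0.79, adjusted p = 9.9e-05), and its ETS partner ELK1 had 340, 323 and 223 CPM (-0.61, adjusted p = 1.6e-06). The acetyltransferases CREBBP (-0.42) and EP300 (-0.57) and the actin-regulated coactivators MRTFA (-0.75) and MRTFB (-0.88) were the other 4. CRTC3, a CREB coactivator, was the third highest of that list after ELK1 and CREBBP and had 195, 223 and 191 CPM. ELK4, at 11.4, 7.52 and 23.7 CPM, was called over the 3 libraries but not in the pair (adjusted p = 0.0513), where it passed with TMM factors (0.0391), DESeq2 factors (0.0361) and totals without DDX49 (0.0466).

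Effectors of the immediate early response had 4 of 18 tested members called higher in replicate 3 and 0 lower, against 6.7% higher and 9.88% lower over all genes, with a median log2 difference of 0.11. With the common spread added none of the 4 was called over the 3 libraries (adjusted p from 0.308 for ZFP36 to 0.987 for CCN1). CCN1, a secreted matrix protein, had 484, 538 and 602 CPM (0.31, adjusted p = 0.000543). PHLDA1 (0.53), CCN2 (0.64) and ZFP36 (1.35), which binds AU-rich elements and speeds mRNA decay, were the other 3, and MCL1 and PLK3 were called only over the 3 libraries. PPP1R15A (208 ± 10.7 CPM) and IER5 (202 ± 15.8 CPM), next highest after CCN1, were not called.

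Of the known AP-1 targets 10 of 16 were in the table, and 3 of these averaged under 1 CPM, 1 of them at 0 counts. Of 7 tested 2 were called, both higher in replicate 3, against 6.7% higher and 9.88% lower over all genes. The median log2 difference was 0.34, against -0.08 over all genes tested. With the common spread added neither of the 2 was called over the 3 libraries (adjusted p = 0.793 for TIMP1 and 0.937 for PLAUR). The protease inhibitor TIMP1 had 369, 423 and 523 CPM (0.50, adjusted p = 4.5e-08), and the urokinase receptor PLAUR 230, 246 and 300.02 CPM (0.38, adjusted p = 0.00383). VEGFA (440 ± 6.91 CPM) and CD44 (341 ± 5.91 CPM) were not called.

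Among other genes related to AP-1 subunits, 5 of 8 tested were called over the libraries, against 19.6% of all genes. Of the 5, 4 are described here. FOSL2 (log2 difference -0.35, adjusted p = 0.000505) and the small MAF protein MAFG (-0.89, adjusted p = 0.0062) were lower in replicate 3, and JDP2 (82.7 ± 15.6 CPM) and ATF7 (22.7 ± 8.65 CPM) were called only over the 3 libraries. The other immediate early transcription factors had 1 call of 10 tested, KLF4 (1.22, from 21, 23 and 28 counts), while MYC (864 ± 30.4 CPM), NR4A1 (76.0 ± 2.27 CPM) and ATF3 (52.9 ± 11.1 CPM) were not called. ATF3 had an adjusted p of 0.0529 in the pair of replicates 1 and 3 and passed there with TMM factors (0.0327), DESeq2 factors (0.0285) and totals without DDX49 (0.0437).

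Of the other dual-specificity phosphatases, none of 11 reached the level of DUSP1 in reads. DUSP16 (77.0 ± 13.3 CPM), DUSP3 (58.5 ± 1.18 CPM) and DUSP2 (33.1 ± 2.32 CPM) were highest. Of 10 tested 3 were called over the 3 libraries, against 19.6% of all genes. They were DUSP5, DUSP9 and DUSP10, the last from 5, 27 and 23 counts. In the pair of replicates 1 and 3, of 9 tested DUSP5 was higher (1.26) and DUSP9 lower (-1.50) in replicate 3. Over all genes 6.7% were called higher and 9.88% lower in that pair, where DUSP10 fell short of the count minimum.

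Of JNK and p38 pathway kinases 1 of 8 tested was called over the 3 libraries, against 19.6% of all genes. It was MAP2K4, also called lower in replicate 3 than in replicate 1 (-1.48, from 50, 28 and 9 counts), as were 9.88% of all genes. MAPKAPK2 (168 ± 18.4 CPM), MAP2K3 (114 ± 2.61 CPM) and MAPK9 (57.0 ± 13.6 CPM) were highest. Of 7 tested binders of AU-rich elements 2 were called over the 3 libraries, against 19.6% of all genes. In the pair of replicates 1 and 3, ZFP36 was higher and the stabilising factor ELAVL1 lower (-0.61) in replicate 3. Over all genes 6.7% were called higher and 9.88% lower there. KHSRP (456 ± 33.6 CPM) and ZFP36L1 (121 ± 8.89 CPM) were not called. ZFP36 stands in 2 lists, as does ATF3. The keratins KRT8, KRT7 and KRT18 were also called lower in replicate 3, and their part in these differences was not tested.

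**Figure D4:**
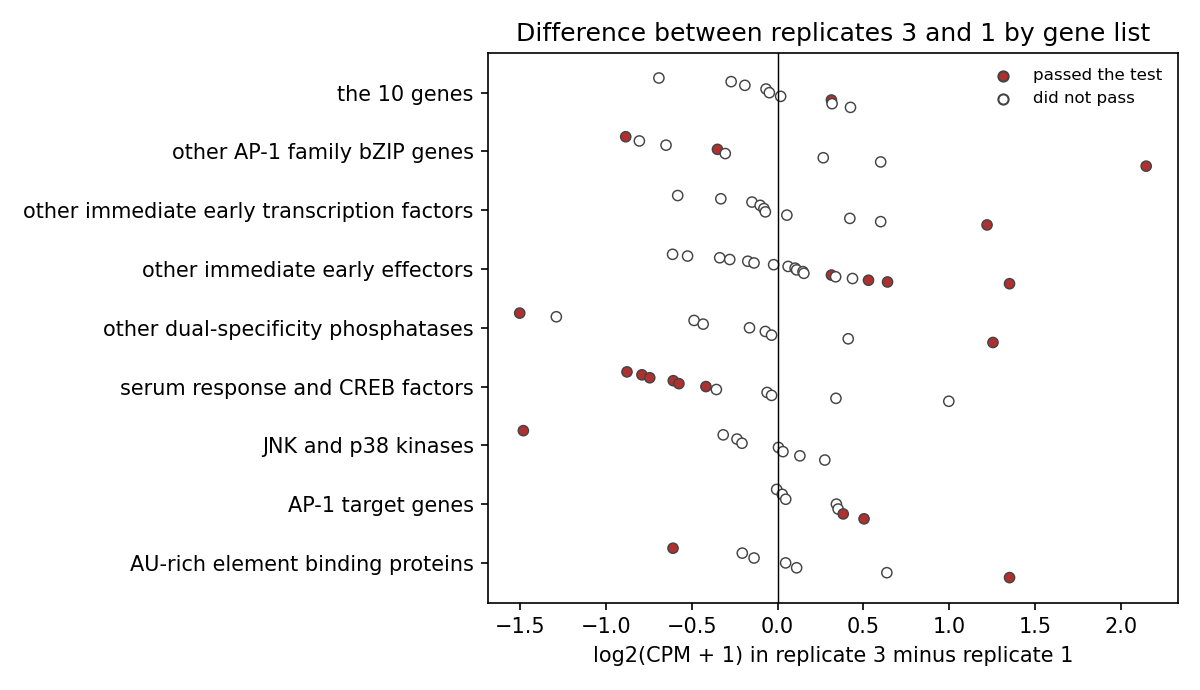
Log2(CPM + 1) in replicate 3 minus replicate 1 (x axis) for each gene tested in that pair, by list (y axis), with filled points for genes that passed the test. 1 of 9 points is filled among the 10 genes, and the 6 filled points of the serum response and CREB factors all lie below 0.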

How the data were processed

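RNA recovered with Flag-DDX49 was measured in 3 libraries of 1 group, numbered as in the labels. The values used are raw gene counts as deposited by the authors, named so in the file headers. CASAVA 1.4 and build hg38 come from the submitters' processing notes, and no source used here names the aligner, the counter or the treatment of strand. The 3 normalised per-sample columns were left aside. Counts were scaled to library totals (CPM), with a pseudocount of 1 CPM before log2. Symbols and positions came from RefSeq GRCh38.p14, the assembly of hg38, by gene identifier for 12819 of 13247 genes (96.8%).

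Genes of 30 or more summed counts were compared between libraries by chi-square tests, adjusted over all of them by Benjamini-Hochberg, and spread came from an intercept-only edgeR fit. Levels per coding length had been planned, but no such lengths were used here, so reads, and span for intronless genes, took their place. All 10 members are named, and of the other lists the 3 highest genes and those called, though some genes that this rule takes are left out. FOSL2 in the AP-1 share, HOOK2, KRT19 and MRTFB were named after their values were seen. Members and lists were chosen with earlier results of these data known. The procedures were tested on simulated data. For the chi-square test these held counting error only, and 0 of 8633 genes were called when none was changed. Of 200 genes changed 2-fold in replicate 3, 70.0% were recovered. These data held no further spread between libraries, so they do not show how the test performs with it. Alternatives varied library sizes, count minimums, pseudocounts and the replicates used. Tools were Python 3.11.15, numpy 2.4.6, scipy 1.17.1, pandas 2.3.3, matplotlib 3.10.9, R 4.3.3, edgeR 4.0.16 and DESeq2 1.42.0.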

Additional observations from a re-analysis of the deposited data

How the results depend on the processing

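The count of 1 member differing between libraries held with TMM factors, DESeq2 size factors, totals without DDX49 and summed counts of at least 10 or at least 1. It was 0 with the common dispersion added, which was estimated from these same libraries. The count ranged from 0 to 1 with 1 replicate left out: 0 without replicate 1 and 0 without replicate 3 (IER2 adjusted p = 0.115 and 0.788). Leaving out replicate 1 or 3 is the same test as the pair 2 and 3 or 1 and 2 above, so those pairs are no further check. The members' median log2 difference between replicates 3 and 1 changed sign with the scaling. It went from -0.0476 to 0.00785 with TMM and 0.0216 with DESeq2 factors, all near 0. The median over all genes tested moved as well, from -0.0766 to -0.0219 with TMM and -0.00813 with DESeq2 factors. In the pair 1 and 2 the members' median was 0.0128, and in the pair 2 and 3 it was 0.0619. DUSP1 turned sign with TMM and DESeq2 factors and IER3 with DESeq2 factors, and neither passed the test. The median percentile was 83.7 among genes of at least 1 CPM. The JUN family share was 54.4% with FOSL2 on the FOS side, an alternative added after seeing the data. Levels per kb of coding length were not run. FOSB and EGR1, with 16 and 66 counts, are limited by depth. No paired analysis was possible because there was 1 group.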
